A study of Mus musculus with 12 samples.

Results

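The genes of the major histocompatibility complex (MHC) and of antigen presentation were followed in back skin of mice treated with MXD or N-CE. The members were chosen by name: every probe whose gene name on the array starts with H2-, together with the probes for B2m, Tap1, Tap2, Tapbp, Psmb8, Psmb9, Psmb10, Ciita, Cd74 and Nlrc5. This gave 49 genes of 27373 gene names and 74 probes of 41174. Of the 49 genes, 27 are class I chains, 8 supply peptide to class I or control it, 12 belong to class II, and H2-Ke2 and H2-Ke6 carry the prefix because they lie in the complex and were kept apart. No probe on the array carries the name H2-D1.

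The mice were male C57BL/6, 8 weeks old, with shaved backs. They received 200 µL per day of 3% MXD (minoxidil), 10% N-CE (a cell extract of the cactus Notocactus ottonis, obtained by cold vacuum) or VC, the vehicle of propylene glycol, ethanol and water at 5:3:2, and all groups therefore shared the shaving and the vehicle. Whole back skin was taken at 1W, 2W and 3W, and the RNA of the 6 mice of a group at a given week was combined, which makes 9 pools, each made once. A treated pool and its same-week VC pool shared 2 arrays, the second with exchanged dyes, giving 6 comparisons on 12 arrays. The 4 arrays of a week lie on 1 slide and use the same VC pool. Week and slide therefore cannot be told apart, and the MXD and N-CE values of a week share their control. All values below are log2 folds of treated skin over VC, and the error is the SD over the 2 arrays of the dye swap (n = 2 arrays), which covers the hybridization and not the mice.

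MHC class I molecules are built from a heavy chain and β2-microglobulin (B2m), and show peptides from inside the cell to CD8 T cells. The peptides are cut by the immunoproteasome, whose subunits are Psmb8, Psmb9 and Psmb10, carried into the endoplasmic reticulum by Tap1 and Tap2, and loaded with the help of tapasin (Tapbp). Class II molecules are pairs of an alpha and a beta chain, are held by the invariant chain Cd74 until H2-DM exchanges peptide, and show taken-up antigen to CD4 T cells. In skin, class II is made mainly by Langerhans cells, dermal dendritic cells and macrophages, whereas class I is found on most cells but is known to be low in the bulb of the growing hair follicle. Nlrc5 drives transcription of class I genes and Ciita that of class II genes, both through the X and Y boxes upstream of the start, and interferon gamma raises both classes. C57BL/6 mice carry the b haplotype, which lacks the L locus of class I and makes no class II E alpha chain.

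The promoters of 5 of them are shown for the X2 and Y box elements and the interferon and kappaB elements they hold. RefSeq promoter sequences (GRCm38.p6) were at hand for 33 of the member genes, in 36 windows, and the windows printed here are the 250 bases before the start, 5′ to 3′ on the coding strand. Capitals mark CCAAT (or ATTGG on the other strand), its longer Y box form CTGATTGG, the X2 box core TGACG, the core of the interferon-stimulated response element and the kappaB site, all searched on both strands. The CCAAT and CTGATTGG matches overlap by construction. Each element, the interferon-stimulated response element core included, was searched as a fixed string, and variant forms were not searched. A window without a mark, such as that of H2-K1 for the interferon element, can therefore still hold a variant of the element. The windows are chr17:34000348-34000597 (minus strand) for H2-K1, a class I chain, chr2:122147437-122147686 (plus strand) for B2m, chr17:34187331-34187580 (minus strand) for Psmb9, chr17:34287824-34288073 (minus strand) for H2-Aa, the A alpha chain of class II, and chr17:34305617-34305866 (plus strand) for H2-Eb1, the E beta chain.
H2-K1: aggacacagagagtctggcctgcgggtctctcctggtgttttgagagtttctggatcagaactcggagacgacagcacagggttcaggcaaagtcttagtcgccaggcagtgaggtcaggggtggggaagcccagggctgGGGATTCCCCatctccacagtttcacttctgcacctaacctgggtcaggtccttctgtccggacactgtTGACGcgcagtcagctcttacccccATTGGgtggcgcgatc
B2m: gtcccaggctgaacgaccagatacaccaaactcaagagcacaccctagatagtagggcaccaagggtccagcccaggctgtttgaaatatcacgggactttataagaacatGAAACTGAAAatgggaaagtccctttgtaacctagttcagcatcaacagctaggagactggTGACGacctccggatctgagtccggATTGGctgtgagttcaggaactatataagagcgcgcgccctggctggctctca
Psmb9: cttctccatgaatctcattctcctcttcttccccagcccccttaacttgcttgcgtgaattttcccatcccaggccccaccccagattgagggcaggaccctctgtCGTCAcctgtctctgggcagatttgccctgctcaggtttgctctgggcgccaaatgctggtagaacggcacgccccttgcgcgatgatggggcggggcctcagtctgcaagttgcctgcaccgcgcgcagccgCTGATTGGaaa
H2-Aa: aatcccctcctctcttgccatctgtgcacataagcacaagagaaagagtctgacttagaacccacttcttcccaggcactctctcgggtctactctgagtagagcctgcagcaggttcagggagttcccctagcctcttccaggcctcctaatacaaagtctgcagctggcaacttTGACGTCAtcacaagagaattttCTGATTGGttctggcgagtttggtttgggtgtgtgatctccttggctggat
H2-Eb1: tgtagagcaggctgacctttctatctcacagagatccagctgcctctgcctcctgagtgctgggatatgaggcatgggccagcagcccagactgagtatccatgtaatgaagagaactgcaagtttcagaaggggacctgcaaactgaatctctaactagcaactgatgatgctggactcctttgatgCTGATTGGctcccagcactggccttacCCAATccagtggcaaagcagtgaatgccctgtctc

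In H2-K1, B2m and H2-Aa the X2 box core lies a short way upstream of ATTGG. It begins 41 bases before the start in H2-K1, 78 in B2m and 74 in H2-Aa, where it is part of a palindrome, and the ATTGG begins 16, 53 and 48 bases before the start. TGACG followed by ATTGG with 18 to 22 bases between them was found in 6 of the 36 member windows, belonging to H2-K1, H2-M3, H2-Q7, B2m and H2-Aa, and in 0.247% of all 32851 windows of this length. This spacing was chosen after these sequences had been read. CCAAT was present in 31 of 36 member windows against 33.8% of all windows, CTGATTGG in 17 against 3.83%, TGACG in 15 against 17.8%, the interferon gamma activated site TTCNNNGAA (not marked) in 4 against 7.02%, the interferon-stimulated response element core in 3 against 2.98% and the kappaB site in 2, both of H2-K1, against 0.0852%. Of the 9 class II windows 8 held CCAAT and 4 CTGATTGG, but 1 held TGACG, and the interferon-stimulated response element core and the kappaB site were in 0. All these counts are of matches to the fixed strings, so they do not show that the remaining windows lack the elements. The H2 genes descend from common ancestors and their windows are not independent.

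Of the 49 genes, 39 were well above background in at least 1 group of at least 1 comparison. The 10 that never were are H2-M1, H2-M10.1, H2-M10.2, H2-M10.3, H2-M10.4, H2-M11, H2-T18 and H2-T24 among the class I chains and H2-Ea-ps and H2-Eb2 in class II, so that the probe for the E alpha chain pseudogene was dim in every pool. A group of 29 genes was above background on all 12 arrays in both channels: 13 class I chains, the 8 supply genes and 8 of class II. Directions are counted over these 29, since a dim gene can enter a comparison only through the group in which it is bright. Each gene is represented by its brightest probe. The share of transcript spots above background was 57.0 to 69.6%, and saturated spots numbered 0 on all arrays. Over all probes above background the 2 arrays of a swap correlated with r between 0.26 and 0.71, except at N-CE 2W, where r was -0.17, so that single values of that comparison carry little. For the 29 genes the median SD was 0.06 to 0.09 at 1W and 3W, 0.26 at MXD 2W and 0.23 at N-CE 2W.

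The members were lower in MXD skin at every week and lowest at 2W, whereas in N-CE skin they were higher at 1W, near VC at 2W and lower at 3W. In MXD skin the count of genes lower than VC on both arrays was 25 of 29 at 1W, all 29 at 2W and 22 at 3W, where the shares over all 14621 genes above background on the same arrays were 35.2%, 36.0% and 28.1%. In N-CE skin 27 of 29 were higher on both arrays at 1W, beside 35.3% of all genes, 7 of 29 were lower on both at 2W, beside 17.8%, and 23 of 29 were lower on both at 3W, beside 29.9%. The median over the 29 genes was -0.33 at MXD 1W, -0.66 at MXD 2W, -0.13 at MXD 3W, 0.18 at N-CE 1W, -0.07 at N-CE 2W and -0.17 at N-CE 3W, and the median of the 14621 genes stayed between -0.01 and 0.02. Whole skin was measured, so that fewer cells of a type and less RNA per cell cannot be told apart.

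**Figure D1:**
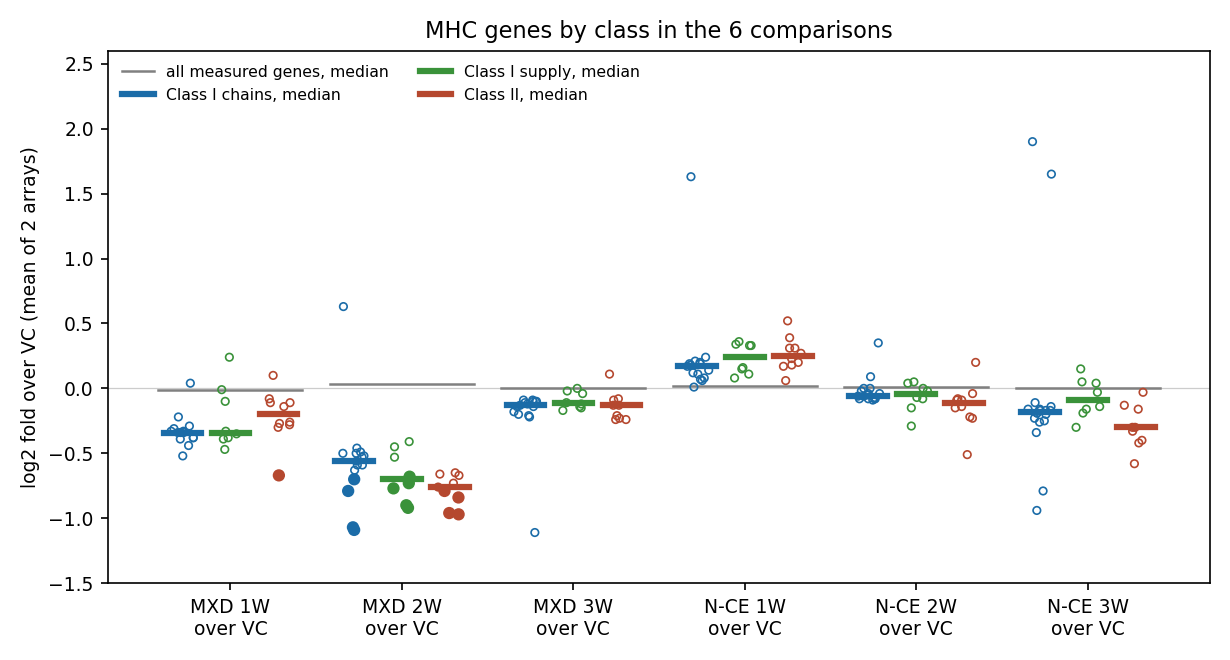
Log2 fold over VC (vertical axis, mean of the 2 arrays of a dye swap) of each measured MHC gene in the 6 comparisons, by class; filled circles are genes whose probe was called, bars are class medians and grey lines the median of all measured genes. The 3 class medians lie below 0 in all MXD comparisons, reach -0.56, -0.70 and -0.76 at MXD 2W, and lie above 0 at N-CE 1W. The circles far above the rest at N-CE 1W and N-CE 3W are probes such as H2-T3 and H2-M10.5, whose 2 arrays disagree. The lowest circle at N-CE 3W is H2-Q1, a dim probe with readings of -1.08 and -0.80.

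Calls used the P and fold thresholds of the study, applied here to both arrays of a swap: both had to give a spot P under 0.01 and the same sign, and their mean had to exceed 1.5-fold or lie below 0.75-fold. The spot P comes from the error model of the scanner software and describes the hybridization. At MXD 2W 26 of 56 measured member probes were called down, from 15 genes, and 0 were called up, where 8.36% of all measured probes were called down and 5.79% up. At MXD 1W 1 of 56 was called down and 0 up, beside 1.11% and 0.995% of all probes. At MXD 3W 0 of 55 were called, beside 0.253% down and 0.226% up. At N-CE 1W 2 of 57 were called up, both for H2-Q10, and 0 down, beside 0.434% up and 2.21% down. At N-CE 2W 0 of 58 were called, beside 0.0987% up and 0.074% down, and at N-CE 3W 0 of 59, beside 0.219% up and 0.201% down. Outside MXD 2W the member counts are therefore too small to set against these shares.

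At MXD 2W the class I chains had a median of -0.56 over 15 measured genes, with -0.32 on array 1 and -0.75 on array 2. H2-K1, the classical K chain, measured -0.32 and -0.80 on the 2 arrays, a mean of -0.56 ± 0.34 and a fold of 0.677, and was not called. H2-M3, which presents formylated peptides, fell by 1.07 ± 0.22, to a fold of 0.478, with -0.91 and -1.22 on the 2 arrays. H2-T23, the Qa-1 chain that binds CD94/NKG2 receptors, fell by 0.70 ± 0.15, and H2-Q5 fell by 0.79 ± 0.13. H2-T22, a ligand of gamma delta T cells, fell by 1.09 ± 0.33 with values of -1.33 and -0.86, and its other probes were called as well, at -0.88 and -0.97. The remaining class I chains above background on all arrays lay between -0.46 for H2-Bl and -0.63 for H2-M2 and were not called. Both array values of H2-M3 and of H2-T22 were below both of H2-K1. The highest member was H2-Q1, a dim probe at 0.63 ± 1.19 with readings of -0.21 and 1.48.

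The supply genes at MXD 2W had a median of -0.70, with -0.71 and -0.65 on the 2 arrays, and 5 of the 8 were called down. B2m, the light chain of every class I molecule, measured -0.71 and -1.12, so it fell by 0.92 ± 0.29 to a fold of 0.529, and its other 2 probes were called too, with -0.89 and -1.11 on the arrays for 1 and -1.08 and -0.94 for the other. The immunoproteasome subunits fell by 0.90 ± 0.19 for Psmb8, 0.73 ± 0.04 for Psmb9 and 0.68 ± 0.07 for Psmb10. Nlrc5, the activator of class I genes, fell by 0.77 ± 0.15. The peptide transporter and its loading partner were lower without a call, at -0.53 ± 0.15 for Tap1, -0.41 ± 0.18 for Tap2 and -0.45 ± 0.22 for Tapbp. All array values of the immunoproteasome subunits, B2m and Nlrc5 lay at or below -0.63, and those of Tap1, Tap2 and Tapbp between -0.29 and -0.63.

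Class II at MXD 2W had a median of -0.76 over 9 measured genes, with -0.64 and -1.05 on the 2 arrays, and all 9 were lower on both arrays. H2-Aa fell by 0.97 ± 0.38 to a fold of 0.512, with -0.70 and -1.23, and its other probe was called at -1.12. The beta chain H2-Ab1 was not called by its brightest probe, which read -0.30 and -1.05, but its other 3 probes were called at -0.90, -0.90 and -0.97. H2-DMa and H2-DMb1, the chains of the peptide exchange factor, fell by 0.96 ± 0.34 and 0.79 ± 0.03. Ciita, the class II activator, fell by 0.84 ± 0.05 with -0.80 and -0.87. Without a call, Cd74 was at -0.66 ± 0.57, H2-Eb1 at -0.73 ± 0.36, H2-DMb2 at -0.76 ± 0.16 and H2-Oa, a chain of the H2-O inhibitor of peptide exchange, at -0.65 ± 0.62. For Cd74 the 2 arrays read -0.26 and -1.06, a difference wider than most of the other class II genes showed.

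**Figure D2:**
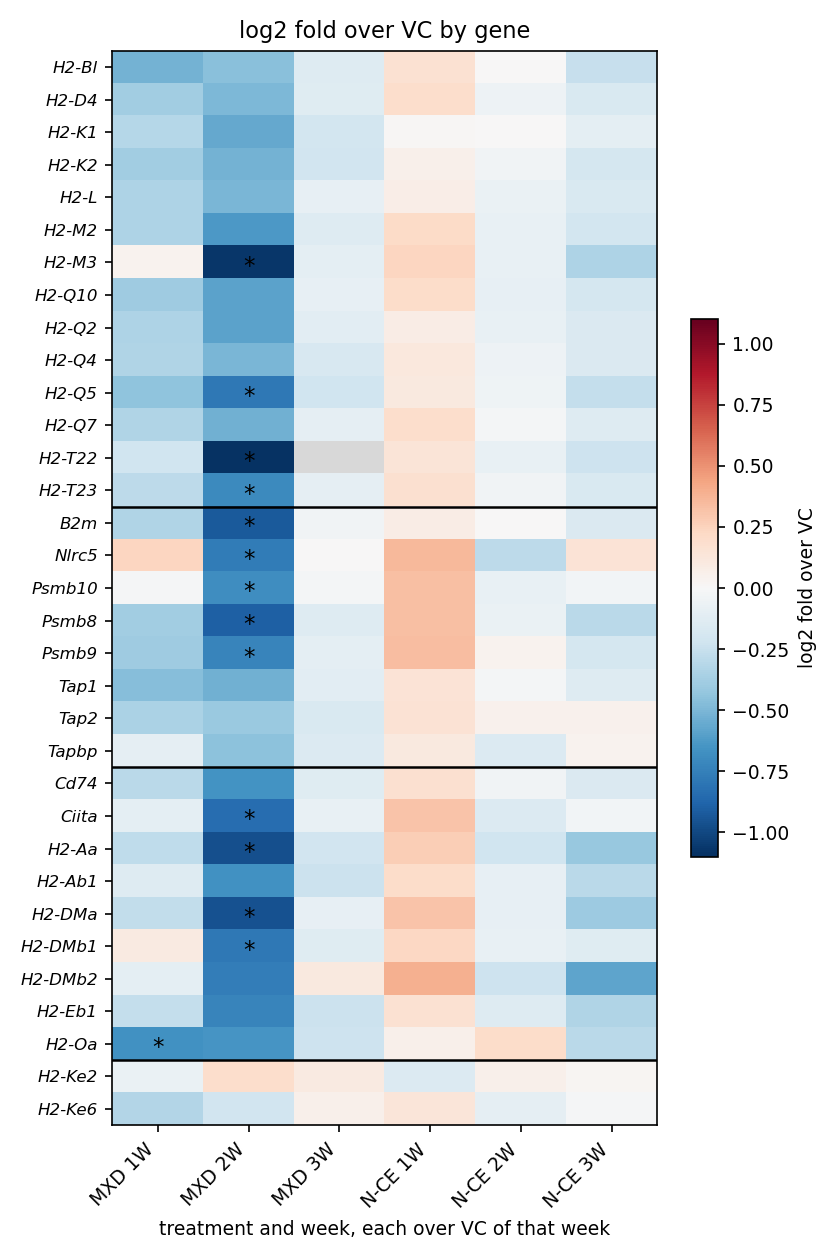
Log2 fold over VC (colour scale) of the members measured in at least 5 comparisons (rows; class I chains, supply genes, class II and H2-Ke genes between black lines) in the 6 comparisons (columns); asterisks mark calls of the brightest probe and grey an unmeasured value. The column of MXD 2W is blue in all rows but H2-Ke2, which was at 0.19, and the column of N-CE 1W is red in all rows but H2-Ke2, at -0.15.

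At MXD 1W the class I chains and the supply genes each had a median of -0.34 and class II had -0.20. Tap1 measured -0.47 on both arrays, Psmb9 -0.38 and -0.39, and Psmb8 -0.36 and -0.40. H2-K1 was at -0.31 ± 0.11, H2-Aa at -0.28 ± 0.08 and H2-Bl, the lowest class I chain, at -0.52 ± 0.09, none of them past the fold threshold with a spot P under 0.01 on both arrays. B2m was at -0.33 ± 0.38, since its arrays read -0.06 and -0.60. H2-Oa fell by 0.67 ± 0.10 and was the only member called at that week, and its other probe was at -0.29 and not called. A few members stood at or above VC: Nlrc5 at 0.24 ± 0.07, H2-DMb1 at 0.10 ± 0.03, H2-M3 at 0.04 ± 0.20 and Psmb10 at -0.01 ± 0.01. Ciita was at -0.11 ± 0.02.

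At MXD 3W the class medians were -0.13 for class I chains, -0.11 for supply genes and -0.13 for class II. H2-K1 was at -0.20 ± 0.11, Psmb8 at -0.14 ± 0.02, H2-Ab1 at -0.24 ± 0.26 and H2-Eb1 at -0.24 ± 0.05. B2m read 0.00 and -0.09 and had returned to within its SD of VC, as had Nlrc5 at 0.00 ± 0.05 and Ciita at -0.08 ± 0.13. H2-DMb2 was highest at 0.11 ± 0.11. H2-T22 has no value there for its brightest probe, which was an outlier on 1 array, and its other probes were at -0.16 and -0.22. H2-Q1, a dim probe, was at -1.11 ± 1.15 with readings of -1.92 and -0.30.

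At N-CE 1W the class medians were 0.17 for class I chains, 0.24 for supply genes and 0.25 for class II, and none of the brightest probes was called. The immunoproteasome subunits were among the higher members, with 0.29 and 0.38 on the 2 arrays for Psmb8, 0.38 and 0.30 for Psmb9, and 0.34 and 0.31 for Psmb10. Ciita measured 0.30 and 0.31, H2-DMa 0.39 and 0.23 and H2-Aa 0.28 and 0.25. All array values of these 6 genes were above VC. Nlrc5 was at 0.36 ± 0.31, Cd74 at 0.18 ± 0.01 and H2-DMb2 at 0.39 ± 0.20. H2-K1, at 0.01 ± 0.02, and B2m, at 0.08 ± 0.11, differed from VC by no more than their SD. The highest values belonged to dim probes: H2-Ob was at 0.52 ± 0.11, and H2-T3 read 3.26 on 1 array and 0.00 on the other.

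At N-CE 2W the class medians were -0.06, -0.04 and -0.11 for class I chains, supply genes and class II, and the 2 arrays disagreed in sign for class I chains, at 0.08 and -0.20, and for class II, at 0.07 and -0.37. H2-K1 read 0.20 and -0.20, and Cd74 0.29 and -0.36. The lowest members were H2-Ob at -0.51 ± 0.83 and Nlrc5 at -0.29 ± 0.39, and the highest were H2-Q1 at 0.35 ± 1.02 and H2-Oa at 0.20 ± 0.31, each within its SD. Ciita was lower on both arrays, at -0.16 and -0.14.

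At N-CE 3W the class medians were -0.18 for class I chains, -0.09 for supply genes and -0.30 for class II. H2-Aa was at -0.42 ± 0.09, H2-DMa at -0.40 ± 0.07, H2-Eb1 at -0.33 ± 0.14, H2-Ab1 at -0.30 ± 0.16 and H2-DMb2 at -0.58 ± 0.39. Ciita, at -0.03 ± 0.13, differed from VC by less than its SD, and Nlrc5, at 0.15 ± 0.08, was above VC. Among supply genes Psmb8 was at -0.30 ± 0.11 and Psmb9 at -0.19 ± 0.06, whereas Psmb10 was at -0.03 ± 0.03. The extremes were probes below background in some or most of the other comparisons. H2-M10.5, above background in no other comparison, and H2-M10.6 read 3.79 and 3.75 on 1 array but 0.00 and -0.46 on the other, so neither has a direction. H2-M9, above background in VC only, read 0.27 and -1.86 and has none either. H2-Q1, above background in VC only, read -1.08 and -0.80, and VC was at least 1.16-fold higher.

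**Figure D3:**
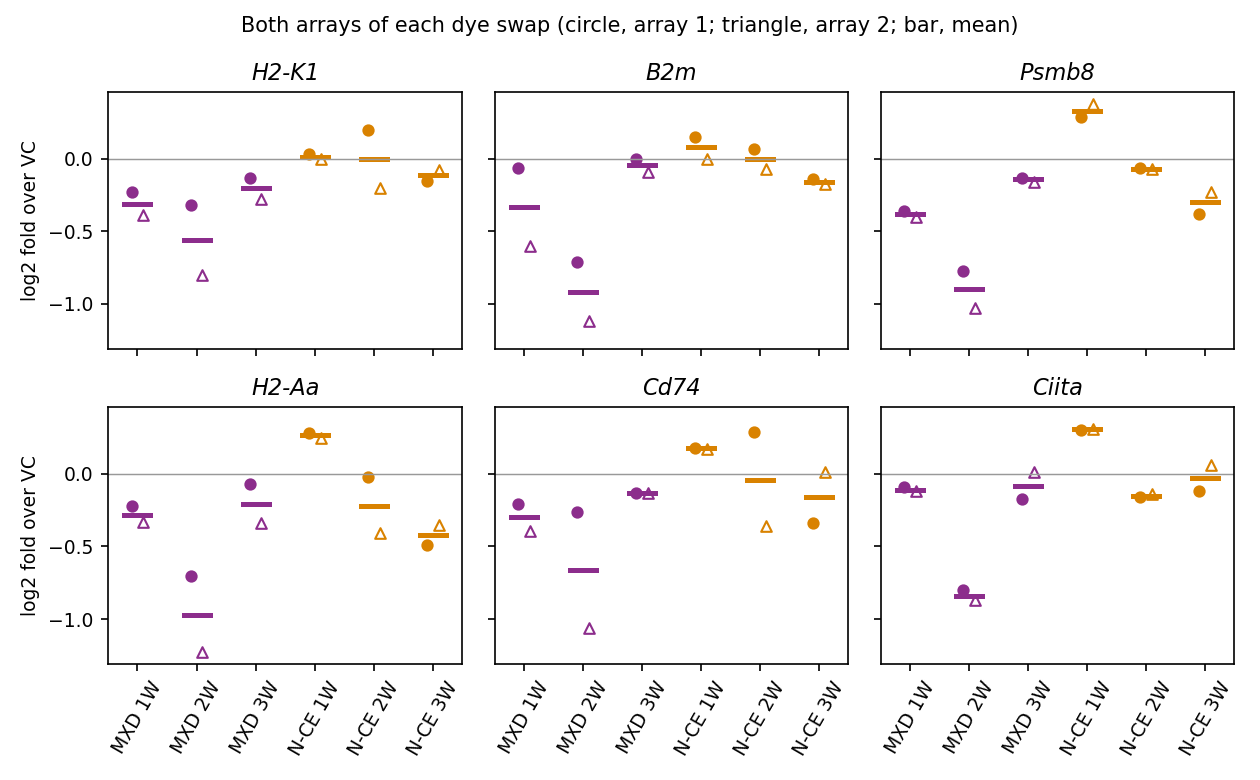
Log2 fold over VC (vertical axis) on array 1 (circle) and array 2 (triangle) of each dye swap, with their mean (bar), for H2-K1, B2m, Psmb8, H2-Aa, Cd74 and Ciita in the 6 comparisons (MXD in purple, N-CE in orange). All 6 genes lie below VC on both arrays at MXD 2W, Psmb8 and Ciita with closely spaced arrays and Cd74 with readings of -0.26 and -1.06.

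The MXD and N-CE pools of a week were set against each other through their common VC, as the difference of their folds. At 1W the 29 genes were all lower in MXD than in N-CE, with median differences of -0.47 for class I chains, -0.46 for supply genes and -0.46 for class II, and at 2W again all were lower in MXD, with medians of -0.50, -0.55 and -0.70. At 3W the medians were 0.04, 0.02 and 0.07, and MXD was the lower in 3 of 13 class I chains, 3 of 8 supply genes and 1 of 8 class II genes. Over all genes the median difference was -0.04, 0.01 and 0.01 at the 3 weeks. These differences have no test, as each pool was made once. The VC channels of the MXD and the N-CE arrays of a week, which hold the same pool, differed by -0.10 to 0.15 in the class medians and by -0.03 to 0.07 over all genes.

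The only test across pools takes the weeks as replicates. With limma's moderated test on the 3 weekly folds, adjusted by Benjamini-Hochberg over 24647 probes, 0 of 53 member probes had an adjusted p under 0.05 for MXD over VC, and likewise 0 for N-CE over VC and 0 for MXD minus N-CE, beside 0% of all probes in each of these comparisons. At an unadjusted p under 0.05 the counts were 29, 0 and 2 of 53, where 10.4%, 1.78% and 7.21% of all probes passed, so the last lies below the share of all probes. These counts hang on single weeks, as do the shares over all probes. For MXD the 29 became 3 without 1W, beside 6.45% of all probes, and 15 without 2W, beside 9.74%. For N-CE the 0 became 10 without 1W, beside 15.9%. The 3 and the 10 thus lie near the shares of all probes. For MXD minus N-CE the 2 became 47 without 3W, where 22.9% of all probes passed. The lowest adjusted p among members was 0.457, 1 and 0.673 in that order. Over the 3 weeks 52 of 53 member probes had a mean below 0 for MXD, beside 47.8% of all probes, with a median of -0.37 that became -0.24 without 2W. For N-CE 39 of 53 were below 0, beside 48.7%, with a median of -0.03. That count became 51 without 1W and 6 without 3W, where the median was 0.06, so N-CE had no direction common to the weeks. The same fit was run on simulated folds with each probe's own spread over the 3 weeks. Of 100 probes changed by 1 on the log2 scale, it recovered 27 for MXD, 53 for N-CE and 0 for MXD minus N-CE. Of 100 changed by 2 it recovered 75, 80 and 66. The member medians, -0.37, -0.03 and -0.35 in that order, were smaller than either change. These counts therefore do not give the recovery at the size seen in the members. Without 3W, which leaves 2 weeks, 7 member probes and 1175 of all probes passed for MXD minus N-CE.

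H2-Q10, a class I chain that the liver is known to secrete, has 5 probes that gave different readings. The brightest probe and 1 more followed the other class I chains, with -0.59 and -0.62 at MXD 2W and 0.20 and 0.19 at N-CE 1W. A second set of 3 probes was called down at MXD 2W, at -1.75 ± 0.84, -1.31 ± 0.38 and -0.87 ± 0.04. Of those 3, the first was called up at N-CE 1W, with 1.46 and 0.96 on the arrays and a mean of 1.21 ± 0.35, and the second with 0.95 and 0.85 and a mean of 0.90 ± 0.07, while the third was at 0.33 ± 0.22. These were the only member probes called in any N-CE comparison. Class I chains resemble one another in sequence: of 757 pairs of class I probes for different genes, 5 matched at 80% or more of at least 45 aligned bases. The closest were the probes for H2-Q2 and H2-L, with 47 of 50 bases, and for H2-T23 and H2-Q7, with 50 of 59, and 1 of the H2-Q10 probes called at N-CE 1W matched the H2-Q7 probe at 38 of 46. Values of single class I chains are uncertain for this reason. The brightest probe named H2-L had a signal of 35500, although the b haplotype lacks the L locus. Its value therefore belongs to some other transcript, and which one was not tested. H2-L was nevertheless kept among the class I chains above background on all arrays, over which directions were counted. How far each probe bound other class I transcripts was not tested.

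Most members lie in the MHC on chromosome 17, which also holds many genes with other functions. On mm9, the build of the array files, the probes of H2 genes run from 34076578 to 37618439 on chromosome 17. At MXD 2W the 25 measured members in that stretch had a median of -0.65, with 24 below 0 and 9 called down, whereas the 110 measured genes of the stretch that are not members had a median of 0.04, with 49 below 0, 6 called down and 7 up. At N-CE 1W the members there had a median of 0.18 with 0 of 26 below 0, and the other 110 genes a median of 0.02 with 51 below 0. The other genes were set apart by name alone. Among them were Gm11127 and C920025E04Rik, on either side of H2-Bl, at -0.60 and -0.62 at MXD 2W. Whether these are class I chains was not tested. H2-Ke2 and H2-Ke6, which encode a prefoldin subunit and a hydroxysteroid dehydrogenase, were at 0.19 ± 0.48 and -0.21 ± 0.08 at MXD 2W. B2m on chromosome 2, Nlrc5 and Psmb10 on chromosome 8 and Ciita on chromosome 16 fell with the members on chromosome 17 at MXD 2W.

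**Figure D4:**
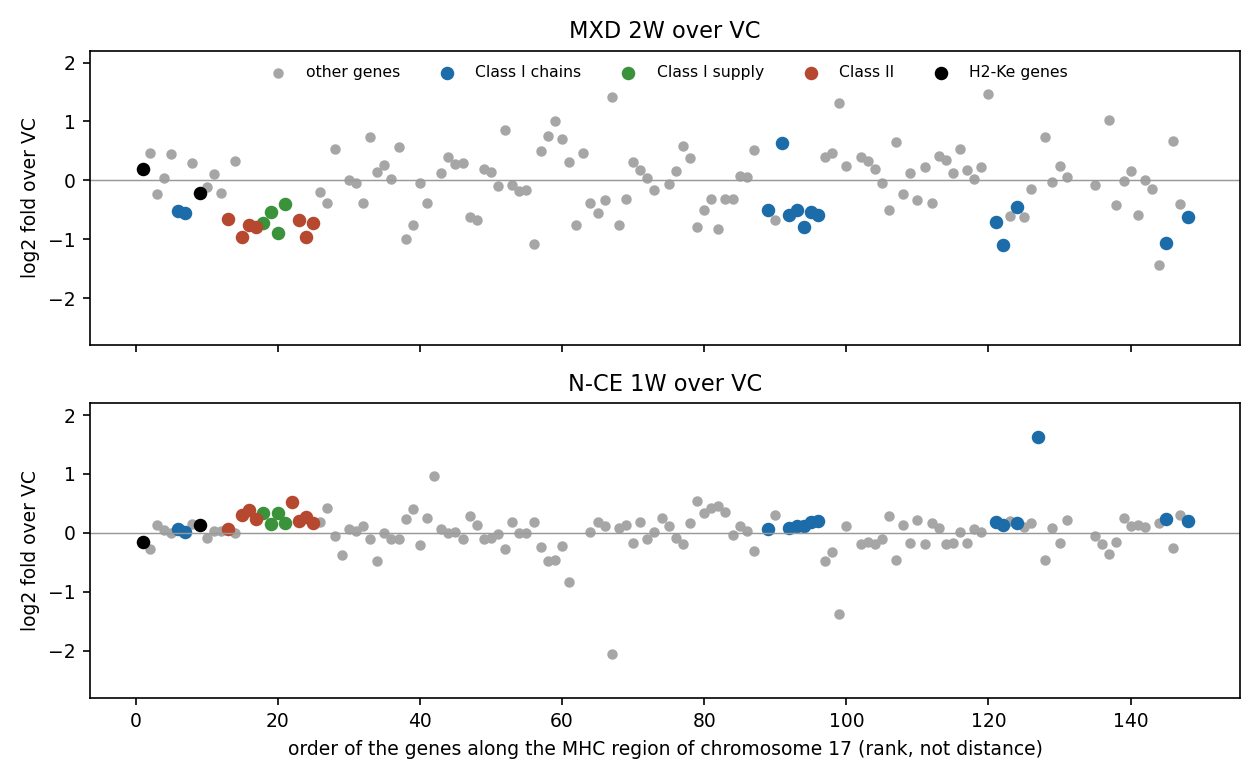
Log2 fold over VC (vertical axis) at MXD 2W and N-CE 1W of the measured genes of the MHC stretch on chromosome 17 in their order along it (horizontal axis, rank), with members in colour by class and other genes in grey. The coloured points lie below 0 at MXD 2W, with a median of -0.65, except a dim H2-Q1 probe, among grey points scattered around 0.04.

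At MXD 2W other genes of the same pathways were called down about as often as genes in general. Of 25 further antigen pathway genes, 24 were measured at MXD 2W and 3 were called down, beside 1880 of 18753 genes in all, with a list median of -0.27: Ctss, the protease that removes the invariant chain, fell by 1.00 ± 0.24, Irf1, an interferon-regulated activator, by 0.84 ± 0.08, and Fcgrt, the neonatal Fc receptor with a class I fold, by 0.80 ± 0.20. No chaperone and no X or Y box factor of that list was called, with -0.09 ± 0.00 for Canx, 0.33 ± 0.07 for Calr and 0.37 ± 0.40 for Nfya. At MXD 1W the list median was -0.07 and Ctss was at 0.47 ± 0.20, on the other side of VC from the class II chains. At N-CE 1W it was 0.10, with Irf1 at 0.39 ± 0.04.

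The 17 interferon-induced genes had list medians on the same side of VC as the members at MXD 2W and N-CE 1W. At MXD 2W 8 of 15 measured were called down, beside those 1880 of 18753 genes, with a list median of -0.84, among them the GTPases Gbp2 at -1.19 ± 0.24, Igtp at -0.91 ± 0.06 and Iigp1 at -1.38 ± 0.30. At N-CE 1W 4 of 15 were called up, beside 99 of 18235 genes, with a list median of 0.41: Iigp1 rose by 1.03 ± 0.16, Igtp by 0.81 ± 0.04, Gbp2 by 0.78 ± 0.00 and Irgm1 by 0.70 ± 0.05. At MXD 1W 2 of 16 were called down, beside 234 of 18553 genes, with a list median of -0.14. These were Gbp2, lower by 0.68 ± 0.07, and the chemokine Cxcl9, lower by 0.78 ± 0.04. Ifit3 and Rsad2 were above VC at 0.24 ± 0.01 and 0.25 ± 0.20. At MXD 3W the list median was 0.08, at N-CE 2W 0.09 and at N-CE 3W -0.24. At MXD 3W it lay on the other side of VC from the members, though its medians on the 2 arrays were only 0.02 and 0.03. At N-CE 2W the list medians on the 2 arrays were -0.08 and 0.17. Those of the 29 members were 0.07 and -0.20, so neither sign is firm there. Ifng, the interferon gamma gene, was not called in any comparison. It read -0.79 and -0.31 on the 2 arrays at MXD 1W and -0.58 and -0.39 at N-CE 1W, where the induced genes were higher. It was above background in VC only at MXD 2W, at -1.18, and at N-CE 3W, at -1.28.

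Markers of cells that carry class II were below VC at MXD 2W, while those of macrophages were above it at MXD 1W. At MXD 2W Ptprc, the pan-leukocyte gene CD45, fell by 1.05 ± 0.18 and the Langerhans marker Cd207 by 1.01 ± 0.02. Of 7 measured dendritic cell markers 4 were called down, beside 1880 of 18753 genes in all. Their median was -1.01, the value of Flt3, and their range -1.63 to 0.06. Flt3 read -0.25 and -1.77 on the 2 arrays and was above background in the treated group only. Of 7 macrophage markers 3 were called down, with a median of -0.68 and a range from -1.08 to 0.19. Epcam, the second Langerhans marker, was at 0.37 ± 0.09, and 4 of 7 skin genes were called down as well, among them Krt10 at -1.43 ± 0.39. At MXD 1W the macrophage markers were higher than VC, with a median of 0.28 and 6 of 7 higher on both arrays, Ptprc was at 0.16 ± 0.17 and the dendritic markers had a median of -0.05, while the class I chains were at -0.34. At N-CE 1W the dendritic markers had a median of 0.26 and the macrophage markers 0.18, and at N-CE 3W -0.20 and -0.28. Of 5 T cell markers at MXD 2W Cd3d and Cd3g were called down and Cd4 up. Cd8a, above background in VC only, read 0.22 and -2.27, and the medians of the 5 on the 2 arrays, 0.18 and -1.16, were opposite in sign. Of 4 B cell markers 3 were measured there, with 0 called. The part of cell numbers in the member values was not tested.

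RNA of hair shaft keratins and of skeletal muscle genes also differed from VC. Tissue composition itself was not measured. The hair shaft keratins had a median of 0.74, 1.34 and 0.30 in MXD skin at the 3 weeks and of -2.56, 0.33 and 0.07 in N-CE skin. In all 6 comparisons the keratin median had the opposite sign to that of the 29 members, but not on every array. At N-CE 2W the medians of the 29 members on the 2 arrays were 0.07 and -0.20. At N-CE 3W those of the keratins were -0.04 and 0.20, so neither of these signs is firm. The skeletal muscle genes had a median of -0.91, -1.46 and -0.42 in MXD skin and of -0.11, -0.47 and -0.31 in N-CE skin. Their part in the member values was not tested.

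**Figure D5:**
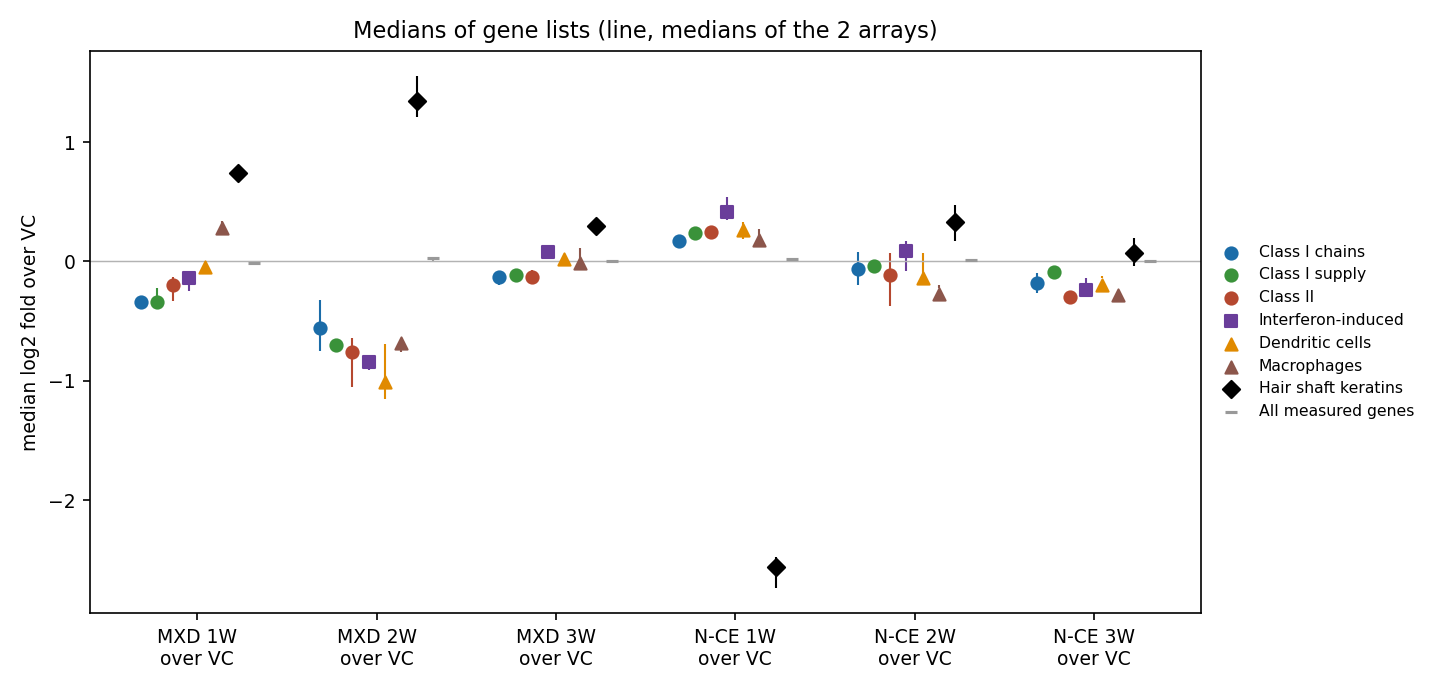
Median log2 fold over VC (vertical axis; lines join the medians of the 2 arrays, and a median of means can lie outside them) of the MHC classes and of 4 other gene lists in the 6 comparisons, beside all measured genes. At MXD 1W the macrophage median of 0.28 stands above VC and the class I median of -0.34 below it, and the hair shaft keratins reach -2.56 at N-CE 1W.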

How the data were processed

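RNA of whole back skin was measured on Agilent 4x44K 2-colour arrays. The authors extracted the spots with Agilent Feature Extraction (12.0.3.1 in the file headers, 11.0.1.1 in the submitters' processing notes). They deposited per spot the log10 of the Cy5 to Cy3 ratio, made after background subtraction and LOWESS dye normalization, a spot p-value from the software's error model, the signal intensity of both channels, and other marks for background and outliers. The deposited matrix equals the log10 ratio of the processed intensity within 5e-09. Its direction is therefore Cy5 over Cy3, and the authors did not centre it, the medians being -0.0455 to 0.0227.

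The sign was set so that treated skin over VC is positive when higher, the scale was changed to log2, spots of the same probe were averaged, then the arrays of a swap, and outlier and control spots were left out. A probe is measured when it was well above background in at least 1 group and has a value on both arrays. "At least" folds and VC levels come from normexp (offset 50), loess and Aquantile. The 2 arrays of a swap hold the same pools and count as 1 replicate. Within a week no test over mice is possible. Mice were killed for sampling, so the pools of different weeks hold different mice. The p-values over weeks measure the spread between weeks, in which pool, slide and treatment time cannot be told apart. The number of arrays limits the precision.

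Calculations used Python 3.11.15, numpy 2.4.6, pandas 2.3.3, R 4.3.3 and limma 3.58.1, and the limma step was tested on simulated data. Of 74 member probes, 60 have an accession in the RefSeq table, and 4 have no position in the files. Gene names are those of the arrays, among them Emr1 for the macrophage marker Adgre1. The genes given with values were H2-K1, the supply genes, class II, every called member and the 2 highest and 2 lowest members of each comparison. The members, the lists and these rules were chosen with earlier results of these data known. Alternatives covered the normalization, the matrix values, the call criteria, the filter on dim probes, outlier spots, centring, other probes, each array alone, the slide as a random effect and leaving out a week.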

Additional observations from a re-analysis of the deposited data

Results flagged for a closer look

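The classes changed direction between the weeks of N-CE treatment: both arrays gave a median above VC at 1W and below VC at 3W. The median log2 fold went from 0.17 to -0.18 for class I chains, a difference of -0.35, from 0.24 to -0.09 for supply genes, a difference of -0.33, and from 0.25 to -0.30 for class II, a difference of -0.55. In MXD skin H2-DMb1 stood above VC on both arrays at 1W and below it on both at 2W, a difference of -0.89, and at 3W, a difference of -0.23. Nlrc5 did the same between MXD 1W and MXD 2W, a difference of -1.01. The H2-Q10 probe with the highest value at N-CE 1W lay below VC on both arrays at N-CE 2W and N-CE 3W, differences of -1.89 and -1.80, and so did the second H2-Q10 probe called there, with differences of -1.41 and -1.28. Each is a difference between weeks of 1 treatment, with 2 arrays of 1 pool on each side, and was not tested; week and slide cannot be told apart. Outliers within groups were not looked for, since each group holds 2 arrays.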

How the results depend on the processing

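No paired analysis was possible because the labels give no replicate numbers shared between groups beyond the week, which the difference MXD minus N-CE already pairs. The sign of the class medians held under all 8 alternatives in MXD 1W, 2W and 3W and in N-CE 1W and 3W. At N-CE 2W each class changed sign or reached 0 with 1 array alone. With fold alone, without the spot P, 51 member probes were called down at MXD 2W (19.8% of all probes) and 1 up (12.3%). At MXD 1W 11 were called down (7.59%) and at MXD 3W 2 (2.96%). At N-CE 1W 1 was called down (8.48%) and 3 up (1.9%), and at N-CE 2W 4 down (2.92%). At N-CE 3W 8 were called down (5.30%) and 2 up (1.91%). With 1 array alone the calls down were 3 to 5 at MXD 1W (2.52 to 3.51% of all probes), 26 to 49 at MXD 2W (13.3 to 14.3%) and 0 to 1 at MXD 3W (0.955 to 0.959%). In N-CE skin they were 0 to 1 at 1W (3.65 to 4.09%), 1 to 1 at 2W (1.38 to 2.10%) and 1 to 3 at 3W (0.734 to 1.18%). The calls up were 0 to 1 at MXD 2W (10.6 to 12.6%), 2 to 3 at N-CE 1W (1.84%) and 0 to 2 at N-CE 3W (1.02 to 1.09%). Under normexp with loess 1 probe was called up at N-CE 1W, and the medians of supply genes were -0.25 at MXD 1W, -0.59 at MXD 2W and 0.16 at N-CE 1W, of class I chains 0.11 at N-CE 1W and of class II -0.21 at N-CE 3W. Without the filter on dim probes the class I chain median was -0.19 at MXD 1W and 0.14 at N-CE 1W, and with both groups above background on both arrays it was 0.15 at N-CE 1W. With the mean over all probes of a gene, supply genes were at 0.27 at N-CE 1W and class II at -0.33 at N-CE 3W. With 1 array alone the class medians were -0.40 to -0.33 for class I chains at MXD 1W, -0.35 to -0.22 for supply genes at MXD 1W, -0.71 to -0.65 for supply genes at MXD 2W, -1.05 to -0.64 for class II genes at MXD 2W, -0.10 to -0.08 for supply genes at MXD 3W, 0.14 to 0.15 for class I chains at N-CE 1W, 0.21 to 0.24 for supply genes at N-CE 1W, -0.15 to -0.08 for supply genes at N-CE 3W and -0.34 to -0.31 for class II genes at N-CE 3W. Of the limma counts, all stayed at 0 except 7 member probes for MXD minus N-CE without 3W, so that leaving out weeks gave 0 to 7. The cause of these shifts was not tested. Of the single-gene values under alternatives, 595 moved by less than their SD or kept their call, 62 moved by more, 18 gained a call and 2 lost it, and 0 called values changed sign. Each treatment and week is 1 pool, the values of H2-T3, H2-M10.5 and H2-M10.6 rest on 1 array, and the SDs over the dye swap are wider at 2W than at 1W and 3W.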
